A study of Mus musculus with 16 samples.

Results

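Transcript levels of the Ifi200 gene family were examined in flexor tendons of C57 and MRL mice, uninjured and at 7 days post-injury (dpi). The family members were taken by their symbols and were Ifi202b, Ifi203, Ifi204, Ifi205, Ifi207, Ifi209, Ifi211 and Mndal, which are 8 of the 49568 genes in the count table. Ifi204 and Ifi209 were chosen for their rise in C57, so their values in every comparison that uses C57 libraries are given as a description without a test. The other 6 members, below termed not chosen, were not picked for a stated rise. All 8 were taken with earlier results of these data known, so counts of members called are not independent of these data.

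The study sequenced bulk RNA from 16 deep digital flexor tendons, with 4 libraries in each of 4 groups. Per its methods, the sheath and the tissue around the tendon were left on, so levels are not those of tendon alone. The C57 groups were C57BL/6J mice and the MRL groups were MRL/MpJ mice, a strain known for unusually good tissue repair, and both were young adult males bred in-house. Injured tendons had been partially lacerated in the middle digit of a hind paw and were collected at 7 dpi, and uninjured tendons of each strain served as controls. The labels name no transgene and no drug. Total counts ranged from 12552424 to 23741648 per library. Values are given as CPM, counts scaled to library sizes that were adjusted by the trimmed mean of M values, and 3 counts, the upper limit that a count of 0 allows, corresponded to 0.126 to 0.241 CPM. These limits cover counting error only. In bulk tissue, fewer cells of a type and less RNA per cell cannot be told apart.

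Ifi200 genes encode interferon-inducible nuclear and cytoplasmic proteins that bind DNA through HIN domains, and most members also carry an amino-terminal pyrin domain through which they meet partner proteins. Members of the family, with the related receptor Aim2, take part in sensing of DNA, in inflammasome assembly, in control of the cell cycle and in differentiation of myeloid cells. The family expanded by local duplication in the mouse, and its gene content and expression are known to differ between inbred strains, with very low Ifi202b transcript levels described for C57BL/6 mice.

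The 8 members lay in a single 401 kb stretch of chromosome 1 (chr1:173630917-174031810, GRCm38, GENCODE M21). The stretch held 16 annotated genes, of which 9 were protein-coding. Ifi209 was the only member on the plus strand and the other 7 were on the minus strand. In order of position the members were Ifi209, Ifi207, Ifi204, Mndal, Ifi211, Ifi203, Ifi202b and Ifi205. The nearest protein-coding neighbours were Ifi206, Ifi214 and Ifi213 on the lower-coordinate side and the olfactory receptor genes Olfr433, Olfr432 and Olfr430 on the other side. None of these neighbours exceeded 23 counts in a library, and Olfr433 and Olfr432 had no count in any library.

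Because the copies resemble each other, reads of 100 bases cannot always be given to a single member. Every 100-base stretch of each member's annotated transcripts was therefore looked up, on both strands, in the annotated transcripts of all other genes. Ifi211 was the member with the largest overlap, with 56.9% of its 1686 stretches also present in another gene. Ifi205 held 37.2% of the Ifi211 stretches and Ifi204 held 19.6%. The shared part was 16.9% for Ifi209, all of it with Ifi214, and it was 15% for Ifi205 and 10.7% for Ifi204. Mndal shared 6.38% of its stretches, Ifi203 2.84% and Ifi207 0.79%. Ifi202b shared 0 of 1598 stretches, so its counts could not come from an exact 100-base copy in another gene's annotated transcripts. Copies that the C57BL/6J reference lacks could not be seen in this way.

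**Figure D1:**
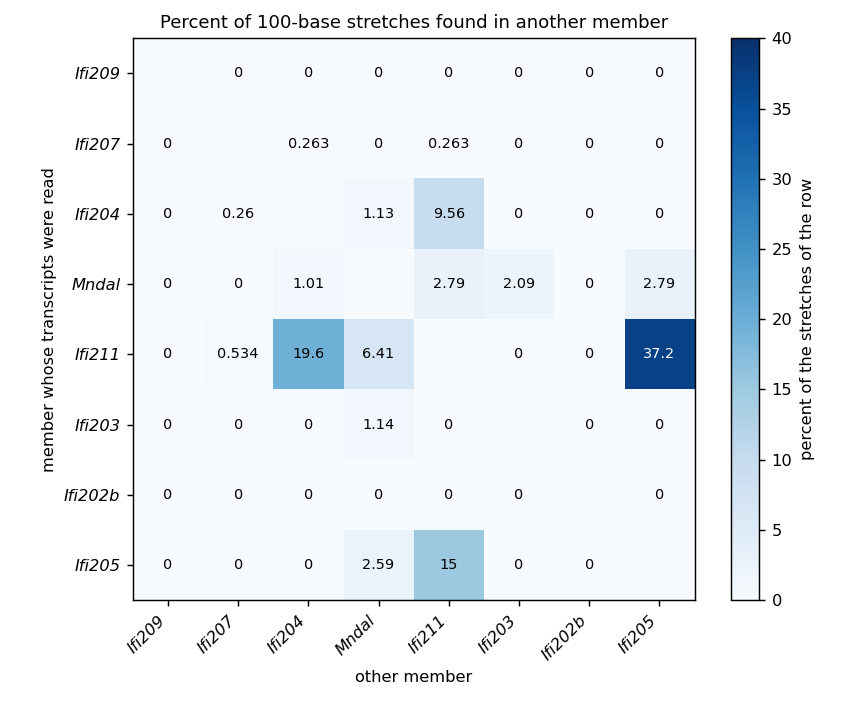
Percent of the 100-base stretches of each member's transcripts (rows, in order along the chromosome) that occurred exactly in each other member (columns), from the C57BL/6J reference transcripts. The darkest cell is Ifi211 in Ifi205 at 37.2%, and the row and the column of Ifi202b are at 0.

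Runs of identical coding sequence are shown because they are the places where a read cannot be assigned. The longest run spanned 495 bases of the coding sequences of Ifi205 and Ifi211, from base 549 of 1212 in Ifi205 and from base 612 of 1275 in Ifi211. Its first 100 bases, the length of a read, are given first. The second run was 223 bases long, from base 201 to base 423 of both Ifi204 and Ifi211. Both are printed 5′ to 3′ on the coding strand, all in lower case since every base is the same in both genes.
Ifi205 and Ifi211: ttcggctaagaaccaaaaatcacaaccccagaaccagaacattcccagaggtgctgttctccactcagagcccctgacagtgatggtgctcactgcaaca
Ifi204 and Ifi211: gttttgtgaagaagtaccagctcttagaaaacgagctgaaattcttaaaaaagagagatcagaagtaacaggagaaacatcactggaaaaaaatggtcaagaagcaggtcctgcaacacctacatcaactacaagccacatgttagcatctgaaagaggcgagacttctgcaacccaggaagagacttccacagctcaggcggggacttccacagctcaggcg

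How reads with several matches were counted was not given in the sources used here. If such reads were dropped, Ifi211 would be undercounted most, and if they were kept, part of its count would come from Ifi205 and Ifi204. The exons of Mndal overlapped those of Ifi203 and the pseudogene Gm38050 over 4.27% of their length. All reads were aligned to the C57BL/6J reference, so MRL reads that differ from it could be lost, and a count difference between strains at this locus cannot be told apart from a difference in alignment.

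Before the members' values are compared, the strain labels were checked with genes counted in the injured libraries of 1 strain only. There were 25 genes with at least 20 counts in every injured MRL library and at most 1 in every injured C57 library, and 18 genes with the opposite pattern. Among the MRL genes, 24 of 25 had 5 or more counts in the library labelled C57 uninjured replicate 4, where 3 of the 18 C57 genes did. In the library labelled MRL uninjured replicate 4, 0 of the 25 MRL genes and 14 of the 18 C57 genes had 5 or more counts. The other 3 uninjured C57 libraries had 0 to 2 of the MRL genes and 14 to 17 of the C57 genes, and the other 3 uninjured MRL libraries had 24 or 25 of the MRL genes and 1 to 3 of the C57 genes. Both libraries labelled uninjured replicate 4 thus went against their strain labels. The strain genes were picked in the injured libraries, so the check bears on the uninjured libraries alone. Both libraries were kept as labelled, and the members' edgeR fold changes that use them are also given without them. The library labelled C57 uninjured replicate 4 also had 9.29% of its counts on 12 epidermal markers, against at most 0.109% in any other library, and injured C57 replicates 1 and 2 had 6.45% and 0.201% on 12 skeletal muscle markers, against at most 0.00176% in the other libraries. The tendon markers Scx, Mkx, Tnmd and 9 others together made up 3.35% to 10.8% of counts in every library, with at most 1 of the 12 at 0.

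Ifi202b (chr1:173962568-173982744), which lacks the pyrin domain and is known as an inhibitor of Aim2, separated the strains at 7 dpi. Its counts in the 4 injured C57 libraries were 0, 0, 0 and 5. In the 4 injured MRL libraries they were 544, 308, 284 and 552. The injured groups did not overlap, and every MRL library was far above every C57 library. The mean level was 0.0887 ± 0.177 CPM in injured C57 and 20.02 ± 8.48 CPM in injured MRL (SD, n = 4 each). The log2 fold change, MRL over C57, was 7.78 ± 0.97 (SE), with an adjusted p of 0.00269 in edgeR's quasi-likelihood test. The size of this value rests on the 5 counts of injured C57 replicate 4, and it ran from 7.37 to 11.57 when any single library was left out, the highest without that replicate. The other 3 injured C57 libraries were at 0, and set against the limit of 3 counts in each of them the MRL mean was at least 107-fold higher. The adjusted p stayed between 0.0024 and 0.0113 when any single library was left out, and was 0.0767 when the spread was estimated from all 16 libraries.

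In both uninjured libraries labelled replicate 4, where strain genes and labels disagreed, Ifi202b followed the strain genes. The uninjured C57 libraries had 0, 0, 175 and 1055 counts, the last in the library labelled replicate 4. The uninjured MRL libraries had 44, 85, 105 and 0 counts, the 0 in the library labelled replicate 4. By label the groups overlapped, and the highest value was in a library labelled C57. The log2 fold change, MRL over C57, was -2.48 ± 2.01 (adjusted p = 0.768, edgeR), and without both libraries labelled replicate 4 it was 0.17 ± 1.69 (adjusted p = 0.979). Even then the C57 group was uneven, because replicate 3, whose other strain genes were those of C57, had 13.5 CPM while replicates 1 and 2 were at 0. The same library held 273 counts of Gm18445, the annotated pseudogene next to Ifi202b, for which the remaining 15 libraries had 0 to 59. The source of these counts was not tested.

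**Figure D2:**
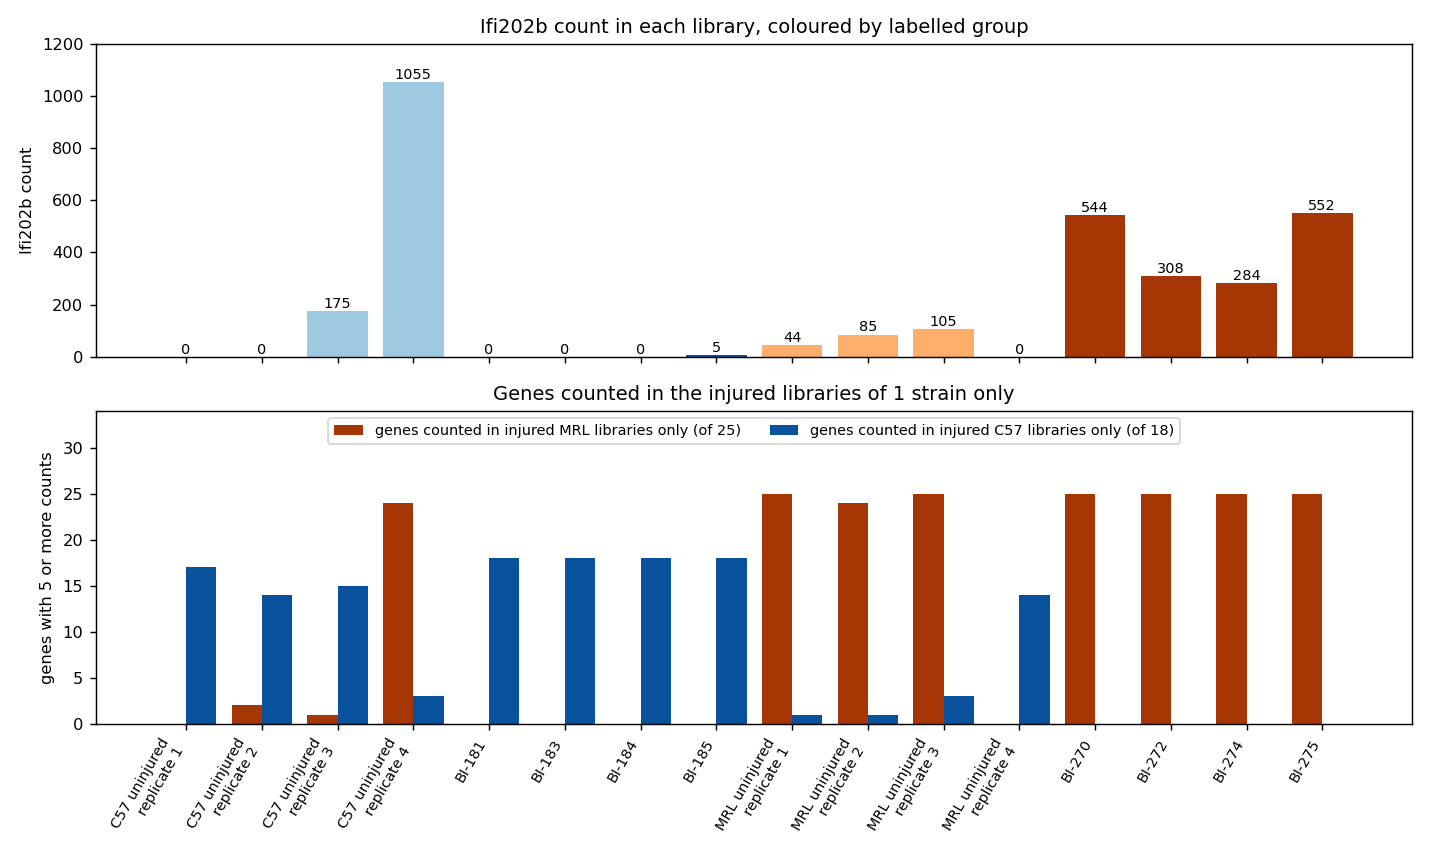
Upper panel, the Ifi202b read count in each of the 16 libraries, coloured by labelled group. Lower panel, how many of the 25 genes counted only in injured MRL libraries and of the 18 counted only in injured C57 libraries had 5 or more counts. The library labelled C57 uninjured replicate 4 has 1055 Ifi202b counts and 24 MRL genes, and the library labelled MRL uninjured replicate 4 has 0 and 0.

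Within MRL, Ifi202b had 2.92, 6.13, 6.27 and 0 CPM in uninjured tendon and 22.9, 14.0, 12.5 and 30.7 CPM at 7 dpi. All 4 injured libraries lay above all 4 uninjured libraries. A log2 fold change of 2.39 ± 0.84 did not pass the test (adjusted p = 0.0957, edgeR). Without the library labelled MRL uninjured replicate 4, which was the one at 0, it was 1.98 ± 0.44 and passed (adjusted p = 0.029). In C57, Ifi202b was below the expression filter of the within-strain comparison and was not tested there. Its mean there was 20.2 ± 32.1 CPM in uninjured C57 (SD, n = 4), or 4.50 ± 7.79 CPM without the library labelled replicate 4 (n = 3). Of the 4 uninjured C57 libraries, 2 held all counts of that group.

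The question for the remaining members was which of them rose after injury in each strain. In C57, Ifi205 and Ifi207 passed the test, and all 7 members other than Ifi202b lay higher in each injured library than in each uninjured library. Of these 7, Ifi204 and Ifi209 were chosen for this rise, and of all genes tested 7.42% lay higher in each injured library (1070 of 14424). Over all genes, 0.908% were called higher in this comparison (131 of 14424), a call being an adjusted p under 0.05 with a log2 fold change over 1. Of the 5 members that were tested and not chosen for their rise, 2 were called.

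Ifi205 (chr1:174011998-174031810), a pyrin and HIN domain protein first known from activated macrophages, had 4.90, 3.56, 3.24 and 6.96 CPM in uninjured C57 tendon. At 7 dpi it had 30.4, 37.6, 25.1 and 39.3 CPM. The lowest injured library was well above the highest uninjured library, which was the one labelled replicate 4. Its log2 fold change was 2.77 ± 0.33 (adjusted p = 0.0121, edgeR).

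Ifi207 (chr1:173723427-173741747), the member with the longest coding sequence at 2934 bases, had 7.39, 9.98, 9.64 and 4.85 CPM in uninjured C57 tendon. It reached 42.2, 41.4, 34.5 and 39.7 CPM at 7 dpi. The injured libraries were close together and far above the uninjured ones. This rise had a log2 fold change of 2.27 ± 0.27 (adjusted p = 0.0121, edgeR).

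Ifi203 had 3.36, 5.25, 2.01 and 2.23 CPM in uninjured C57 tendon and 7.98, 15.5, 7.97 and 23.6 CPM at 7 dpi. Replicates 2 and 4 of the injured group were the higher ones, and the groups did not overlap. Ifi203 had a log2 fold change of 2.05 ± 0.51 and did not pass (adjusted p = 0.101, edgeR). Ifi211, most of whose sequence is shared with Ifi205 and Ifi204, had 2.95, 3.24, 0.694 and 2.81 CPM uninjured and 8.10, 14.6, 7.65 and 17.1 CPM injured. The same 2 injured libraries were the higher ones. Its log2 fold change was 2.23 ± 0.55 (adjusted p = 0.101, edgeR).

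Mndal, named for its likeness to the human myeloid cell nuclear differentiation antigen, had 5.77, 5.44, 2.55 and 1.40 CPM in uninjured C57 tendon and 15.7, 23.3, 14.2 and 29.2 CPM at 7 dpi. The groups did not overlap, with the library labelled uninjured replicate 4 lowest. Mndal had a log2 fold change of 2.40 ± 0.50 and fell just short of the threshold (adjusted p = 0.0597, edgeR).

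The chosen members are described without a test. Ifi204 (chr1:173747293-173766943), a DNA sensor that acts with the adaptor protein Tmem173 (STING), had 4.43, 4.47, 3.39 and 2.49 CPM in uninjured C57 tendon and 22.3, 38.8, 25.0 and 52.0 CPM at 7 dpi. Its log2 fold change was 3.17 ± 0.36, and 3.03 ± 0.35 without the library labelled uninjured replicate 4. Ifi209 (chr1:173630917-173647928) had 0 counts in all 4 uninjured C57 libraries and 94, 53, 63 and 25 counts at 7 dpi. Set against the limit of 3 counts in each uninjured library, its mean of 3.69 CPM was at least 18.0-fold higher.

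Without the library labelled C57 uninjured replicate 4 the direction was the same for each member and more of them passed. Over all genes 3.5% were then called higher (524 of 14983). Ifi205 (log2 fold change 3.05 ± 0.28, adjusted p = 0.00125), Ifi207 (2.10 ± 0.21, adjusted p = 0.00161), Mndal (2.13 ± 0.40, adjusted p = 0.0181) and Ifi211 (2.32 ± 0.58, adjusted p = 0.0486) were called by edgeR, and Ifi203 was not (1.92 ± 0.52, adjusted p = 0.0657). The calls also depended on other libraries. Leaving out injured replicate 2 or 4, or uninjured replicate 1, 2 or 3, raised the adjusted p of Ifi205 to between 0.0547 and 0.0571. Leaving out injured replicate 4 or uninjured replicate 1 or 3 did so for Ifi207, to between 0.0535 and 0.0557. With the spread taken from all 16 libraries the adjusted p was 0.12 for Ifi205 and 0.00591 for Ifi207, and Ifi203, Ifi211 and Mndal were called, against 1.85% of all genes called higher in that fit (295 of 15947). DESeq2 called those 5 members and not Ifi202b (adjusted p = 0.148), and it called 4.2% of all genes higher (692 of 16468).

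**Figure D3:**
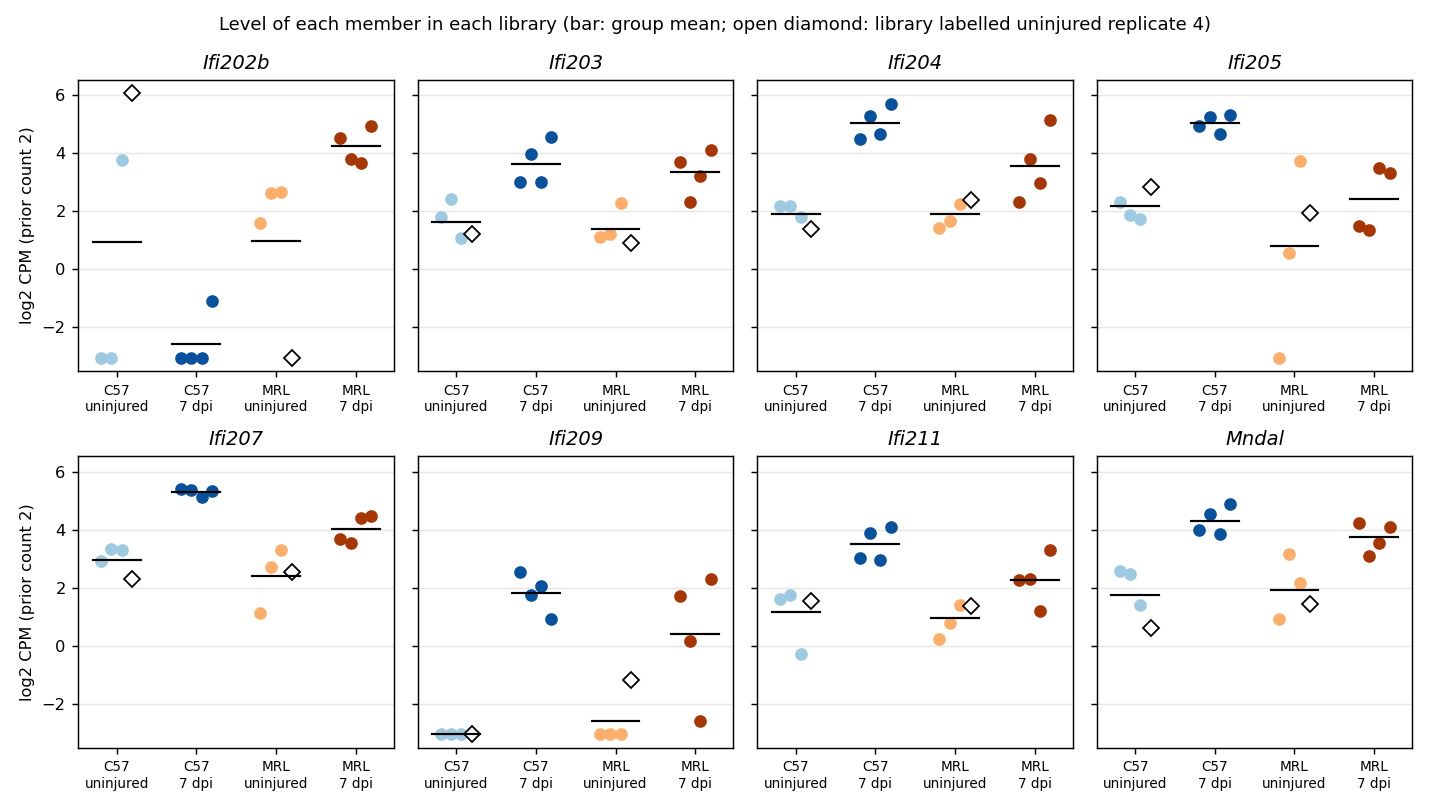
Level of each member in each library as log2 CPM with a prior count of 2, by labelled group, with the group mean as a bar and the libraries labelled uninjured replicate 4 as open diamonds. Points near -3 are libraries with 0 counts. In C57 every member but Ifi202b has all 4 injured libraries above the uninjured ones, and in Ifi202b the diamonds lie on the side of the other strain.

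In MRL, 1 of the 7 members tested was called higher after injury, against 5.25% of all genes (750 of 14274). The groups did not overlap for Ifi202b, Ifi203 and Ifi207, where 13.5% of all genes tested lay higher in each injured library (1927 of 14274). Here the rule that chose Ifi204 and Ifi209 used no MRL library, so all members could be tested. Ifi203 had 2.05, 2.24, 4.77 and 1.77 CPM in uninjured MRL tendon and 13.02, 4.90, 9.17 and 17.1 CPM at 7 dpi. The highest uninjured library came close to the lowest injured one without reaching it. Its log2 fold change was 2.03 ± 0.51 and passed (adjusted p = 0.0304, edgeR). The call was lost, with an adjusted p between 0.0667 and 0.0843, without injured replicate 1 or 4 or without uninjured replicate 1, 2 or 4.

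Ifi204 had 2.58, 3.03, 4.60 and 5.06 CPM in uninjured MRL tendon and 4.83, 13.7, 7.67 and 35.6 CPM at 7 dpi. A single injured library, replicate 4, was far above the next, and the lowest injured library was below the highest uninjured one, the library labelled replicate 4. Ifi204 had a log2 fold change of 2.03 ± 0.60 (adjusted p = 0.0544, edgeR). It passed without injured replicate 1 (adjusted p = 0.0346) or injured replicate 3 (adjusted p = 0.0441), and without injured replicate 4 the log2 fold change was 1.2 (adjusted p = 0.154).

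Ifi207 had 2.05, 6.42, 9.61 and 5.71 CPM in uninjured MRL tendon and 12.6, 11.6, 21.0 and 22.2 CPM at 7 dpi. The groups did not overlap. Its log2 fold change was 1.51 ± 0.45 (adjusted p = 0.0571, edgeR). Mndal had 1.79, 8.80, 4.36 and 2.57 CPM uninjured and 18.4, 8.48, 11.5 and 17.1 CPM injured. Uninjured replicate 2 was slightly above injured replicate 2. The log2 fold change was 1.67 ± 0.52 (adjusted p = 0.0629, edgeR), and without uninjured replicate 2 it was 2.26 and passed (adjusted p = 0.0282).

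Ifi211 had 1.06, 1.59, 2.51 and 2.49 CPM in uninjured MRL tendon and 4.71, 4.85, 2.16 and 9.74 CPM at 7 dpi. Injured replicate 3 lay within the uninjured range and the other 3 above it. The log2 fold change was 1.495 ± 0.59 (adjusted p = 0.131, edgeR). Ifi209 had 0, 0, 0 and 4 counts uninjured, the 4 in the library labelled replicate 4, and 76, 22, 1 and 86 counts at 7 dpi. It was below the expression filter of this comparison and was not tested there. Without the library labelled replicate 4, all uninjured MRL libraries were at 0 and the injured mean of 2.26 CPM was at least 11.4-fold higher. In the fit without that library Ifi209 was tested and was not called.

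Ifi205 had 0, 1.37, 13.1 and 3.70 CPM in uninjured MRL tendon and 2.73, 2.45, 11.2 and 9.80 CPM at 7 dpi. The groups overlapped over nearly their whole range, and uninjured replicate 3 was the highest of the 8 libraries. Its log2 fold change was 0.53 ± 1.11 (adjusted p = 0.795, edgeR), with a 95% interval from -1.93 to 2.99. Without uninjured replicate 3 it was 1.95 (adjusted p = 0.351).

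Without the library labelled MRL uninjured replicate 4, 4.68% of all genes were called higher (696 of 14868), and Ifi202b was the called member. In that fit Ifi203 had a log2 fold change of 1.88 ± 0.54 (adjusted p = 0.0667, edgeR), Ifi204 2.19 ± 0.68 (adjusted p = 0.0838) and Ifi207 1.498 ± 0.51 (adjusted p = 0.11). Ifi205 was at 0.46 ± 1.27 (adjusted p = 0.86), Ifi211 at 1.65 ± 0.65 (adjusted p = 0.154) and Mndal at 1.49 ± 0.55 (adjusted p = 0.13). With the spread taken from all 16 libraries, Ifi203 and Ifi207 were called in MRL among the 6 members not chosen on C57 libraries, against 3.54% of all genes called higher (565 of 15947). DESeq2 called 7 of the 8, with Ifi205 the exception, and it called 6.64% of all genes higher (1124 of 16938).

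At 7 dpi the strains were compared directly. Of the 6 members not chosen, 3 were called, against 3.43% of all genes (502 of 14626). Ifi202b was higher in MRL, as given above, and Ifi205 and Ifi207 were lower. The injured groups did not overlap for these 3 members, as for 15.8% of all genes tested in either direction (2318 of 14626). The 4 injured MRL libraries of Ifi205 (2.45 to 11.2 CPM) lay below the 4 injured C57 libraries (25.1 to 39.3 CPM), with a log2 fold change of -2.37 ± 0.51 (adjusted p = 0.0309, edgeR). Those of Ifi207 (11.6 to 22.2 CPM) lay below the C57 range (34.5 to 42.2 CPM), with a log2 fold change of -1.27 ± 0.26 (adjusted p = 0.0258, edgeR).

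The other members overlapped between the injured strains. The log2 fold change, MRL over C57, was -1.19 ± 0.49 for Ifi211 (adjusted p = 0.196, 95% interval -2.26 to -0.11), -0.60 ± 0.33 for Mndal (adjusted p = 0.33, interval -1.35 to 0.14) and -0.35 ± 0.47 for Ifi203 (adjusted p = 0.716, interval -1.39 to 0.69) in edgeR. The untested Ifi204 and Ifi209 had values of -1.2 ± 0.56 and -0.76 ± 0.96. When the spread was taken from all 16 libraries, none of the 3 calls held, with adjusted p of 0.0767 for Ifi202b, 0.178 for Ifi205 and 0.0826 for Ifi207, and 1.42% of all genes were called (227 of 15947). DESeq2 called the same 3 members, against 8.24% of all genes (1477 of 17934), with adjusted p of 7.99e-19 for Ifi202b, 0.000135 for Ifi205 and 0.000361 for Ifi207. Among the fits with 1 library left out, Ifi205 was called without injured MRL replicate 3 or 4, and Ifi207 without injured C57 replicate 3 or injured MRL replicate 3 or 4. In the remaining fits with 1 library left out, their adjusted p lay between 0.0511 and 0.0867.

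**Figure D4:**
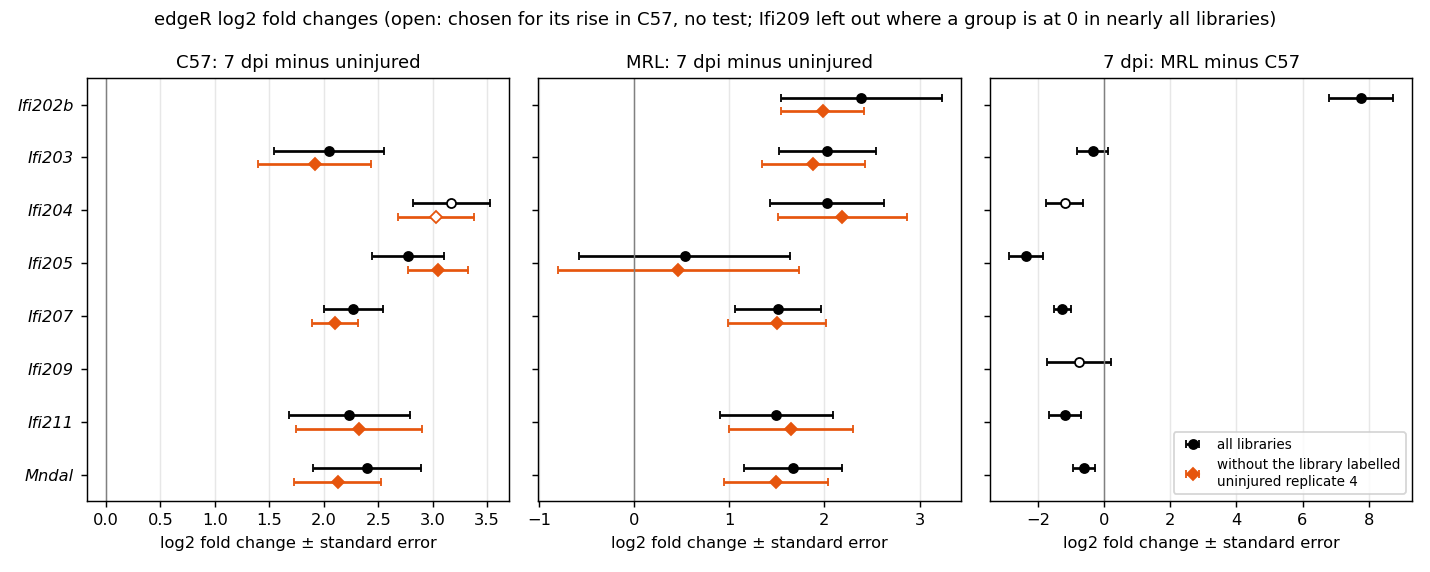
Log2 fold change with its standard error for each member on injury in C57, on injury in MRL and between the injured strains, with all libraries (black) and leaving out that strain's library labelled uninjured replicate 4 (orange). Ifi202b was not tested in C57, Ifi209 is left out of both panels on injury, and open symbols are chosen members without a test. Ifi202b is at 7.78 and Ifi205 at -2.37 between the injured strains, and the values on injury lie to the right of 0.

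In uninjured tendon no member was called between the strains, and neither was any other gene: 0% of 14055 genes passed in edgeR, with 1106 at an unadjusted p under 0.05, while DESeq2 called 104. Without both libraries labelled replicate 4, 3.48% of genes were called (497 of 14274), again with 0 members among them. In that fit the log2 fold changes of the members other than Ifi202b, Ifi204 and Ifi209 ran from -0.59 ± 0.51 for Ifi207 to 0.30 ± 1.22 for Ifi205. Their 95% intervals were wide, -1.74 to 0.56 for Ifi207 and -2.42 to 3.01 for Ifi205.

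Whether a member's response to injury differed between the strains was tested with a strain-by-injury term in a model of all 16 libraries. In edgeR 0% of 15947 genes passed, with 1939 at an unadjusted p under 0.05, and DESeq2 called 211. Without both libraries labelled replicate 4, 0% of 16391 genes passed. The difference in log2 fold change, MRL minus C57, was 10.21 ± 2.78 for Ifi202b (adjusted p = 0.333), -2.30 ± 1.28 for Ifi205 (adjusted p = 0.488) and -0.81 ± 0.53 for Ifi207 (adjusted p = 0.566). The value for Ifi203 was -0.07 ± 0.72 (adjusted p = 0.984, interval -1.60 to 1.45). Without both libraries labelled replicate 4 the differences were 7.60 ± 2.32 for Ifi202b (adjusted p = 0.296), -2.66 ± 1.42 for Ifi205 (adjusted p = 0.537), -0.66 ± 0.55 for Ifi207 (adjusted p = 0.708) and -0.10 ± 0.75 for Ifi203 (adjusted p = 0.989) in edgeR. With 1 library left out at a time, the value for Ifi205 ran from -2.71 to -0.86, the latter without MRL uninjured replicate 3 (adjusted p = 0.85), and that for Ifi202b from 8.01 to 13.81. A difference in response was therefore not shown for any member.

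A read moved from one member to another leaves the summed level of the 8 members as it is, although reads that were dropped, counted more than once or shared with Ifi214 or Ifi203-ps would alter it. The sum was 157 ± 38.8 CPM in injured C57, 91.4 ± 38.1 CPM in injured MRL, 46.0 ± 28.2 CPM in uninjured C57 and 27.2 ± 13.9 CPM in uninjured MRL (SD, n = 4 each). Without the libraries labelled replicate 4, the uninjured sums were 31.9 ± 3.10 CPM in C57 and 29.1 ± 16.4 CPM in MRL (SD, n = 3 each). Ifi202b supplied 20.2 of the 46.0 CPM in uninjured C57, most of it in the library labelled replicate 4, and 4.50 of the 31.9 CPM without that library. With Ifi202b left out of the sum, the 4 means were 157, 71.4, 25.8 and 23.4 CPM in the same order. Without Ifi202b, the injured C57 libraries ranged from 118 to 203 CPM and the uninjured ones from 20.7 to 31.9 CPM. The injured MRL libraries ranged from 47.0 to 116 CPM and the uninjured ones from 9.54 to 39.0 CPM.

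Divided by annotated exon length, the members ranked differently in the injured strains. In injured C57 the highest level was that of Ifi207 at 11.5 ± 1.01 CPM per kb, followed by Ifi204 at 9.68 ± 3.85 and Ifi205 at 7.92 ± 1.58. Ifi211 (6.65 ± 2.64) and Mndal (5.67 ± 1.92) came next, then Ifi203 (2.05 ± 1.11) and Ifi209 (1.04 ± 0.455), with Ifi202b last at 0.0523 CPM per kb. The ranges of neighbours in this order overlapped down to Mndal, and again between Ifi203 and Ifi209. In uninjured tendon Ifi207 had the highest level after Ifi202b in both strains, at 2.33 ± 0.693 CPM per kb in C57 and 1.74 ± 0.906 in MRL. The level of Ifi202b there was 11.9 CPM per kb in C57 (2.65 without the library labelled replicate 4) and 2.26 CPM per kb in MRL (3.01 without its replicate 4). In injured MRL, Ifi202b came first at 11.8 ± 4.997 CPM per kb, ahead of Ifi207 at 4.92 ± 1.61 and Ifi204 at 4.34 ± 3.91. Ifi205 was the seventh there at 1.57 ± 1.11 CPM per kb, between Ifi203 (1.65 ± 0.779) and Ifi209 (0.636 ± 0.604).

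Promoter sequences were available for 7 of the 8 members (RefSeq, GRCm38.p6, 250 bases before to 50 bases after each annotated start), Ifi204 being the one without. The core of the interferon-stimulated response element, the letters GAAANNGAAA or TTTCNNTTTC on the other strand, was present for 5 members, namely Ifi203, Ifi205, Ifi207, Ifi211 and Mndal. It occurred in 3.44% of 32851 promoters of the same length. That share is per promoter, and the 7 members had 9 promoters, so it is not a like-for-like rate for members. The 5 windows are shown to compare the copies of the core, which is in capitals. They are printed 5′ to 3′ in the direction of transcription, and the core began 41 bases before the start in Ifi207, 37 in Ifi211, 35 in Ifi203, 36 in Mndal and 134 in Ifi205.
Ifi207 (chr1:173741826-173741865, minus strand): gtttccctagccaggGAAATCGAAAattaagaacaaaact
Ifi211 (chr1:173913059-173913098, minus strand): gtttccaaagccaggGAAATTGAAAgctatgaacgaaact
Ifi203 (chr1:173942503-173942542, minus strand): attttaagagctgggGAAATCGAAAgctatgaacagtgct
Mndal (chr1:173880199-173880238, minus strand): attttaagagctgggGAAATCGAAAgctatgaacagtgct
Ifi205 (chr1:174031865-174031904, minus strand): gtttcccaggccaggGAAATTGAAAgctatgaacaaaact

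The 40-base windows of Ifi203 and Mndal were identical letter for letter. Ifi203 had a second annotated start without the core, and Ifi209, which also lay higher in every injured C57 library, had none in its window. Ifi205 had a further match after its start, outside the 40 bases shown. Mndal had a further match at a second annotated start. Ifi202b also had no such core. Its window held instead 1 gamma-activated site, TTCNNNGAA, in capitals below, beginning 148 bases before the start. That site occurred in 8.3% of promoters. These are C57BL/6J sequences, the MRL sequence was not analysed here, and a match describes letters and not a site in use.
Ifi202b (chr1:173982795-173983094, minus strand): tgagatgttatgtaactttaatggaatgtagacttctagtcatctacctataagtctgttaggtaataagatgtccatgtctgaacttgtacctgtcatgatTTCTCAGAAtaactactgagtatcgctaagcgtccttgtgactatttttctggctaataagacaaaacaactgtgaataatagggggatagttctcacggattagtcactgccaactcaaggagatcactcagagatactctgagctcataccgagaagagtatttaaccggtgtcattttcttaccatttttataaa

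Across the 16 libraries, the members other than Ifi202b were positively correlated. Pearson's r of log2 CPM between pairs of these 7 members ranged from 0.535 for Ifi205 with Ifi209 to 0.899 for Ifi204 with Ifi211 and for Ifi203 with Mndal. Ifi202b had r between -0.349 and -0.101 with the others. Without the libraries labelled uninjured replicate 4, r ranged from 0.558 to 0.933 between the 7 members and from -0.403 to -0.119 for Ifi202b with the others (14 libraries). These values are descriptions over libraries that share injury state and strain. Ifi204 and Ifi211 also share sequence, as shown above.

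The genes most like each member over the 16 libraries were taken as the 3 with the highest r among 15946 genes. For Mndal these were Cd68, a lysosomal protein of macrophages (r = 0.956), Ptpn18 (0.954) and Cd48 (0.952). For Ifi203 they were H2-Ob (0.929), the Fc receptor gene Fcgr3 (0.922) and Cd68 (0.917). For Ifi207 they were the chemokine gene Pf4 (0.964), Hmha1 (0.932) and Plekho1 (0.928), and for Ifi209 P2ry10 (0.963), H2-DMb1 (0.915) and Slfn1 (0.908). Ifi204 was most like Gpr171 (0.908), Mfap5 (0.902) and Ifi211 (0.899), and Ifi211 most like Ifi204 (0.899), Ltc4s (0.899) and Phf11b (0.89). Ifi205 had Ecscr (0.908), Gm45397 (0.899) and Rasa4 (0.894). Ifi202b was most like Hal (0.94) and the pseudogenes Rplp0-ps1 (0.896) and Pcna-ps2 (0.887). Over the 14 libraries without those labelled uninjured replicate 4, r of these same 24 pairs ranged from 0.886 to 0.977.

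Markers of macrophages and leukocytes made up a higher share of counts in every injured library than in every uninjured library. Together the 12 markers made up 0.0678% to 0.181% of counts in uninjured C57, 0.471% to 0.942% in injured C57, 0.0929% to 0.157% in uninjured MRL and 0.335% to 0.655% in injured MRL, and at most 1 of them was at 0 in any library. Of the 12, 6 were called higher on injury in C57 and 6 in MRL, with median log2 fold changes of 1.99 and 1.06. Over all genes, 0.908% were called higher in C57 and 5.25% in MRL. Without the library of that strain labelled uninjured replicate 4, 11 of the 12 were called higher in C57 and 5 in MRL, with medians of 1.74 and 1.06. The shares of all genes called higher were then 3.5% in C57 and 4.68% in MRL. Between the injured strains 4 were called lower in MRL (Csf1r, C1qa, C1qb and C1qc), against 1.88% of all genes. Of the 12 markers, 0 had a log2 fold change above 0. Their median was -0.97, against -0.89 for the 6 members not chosen on C57 libraries and -0.06 for all genes. The part of these markers in the members' values was not tested.

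Related genes were taken from lists of the pathway. In C57, of 15 DNA-sensing and inflammasome genes tested, 1 was called higher, Tmem173, the adaptor STING (log2 fold change 1.29 ± 0.21, adjusted p = 0.0279, edgeR, and 1.21 ± 0.19, adjusted p = 0.0104, without the library labelled uninjured replicate 4). Of 25 interferon response genes, 1 was called, the transcription factor gene Irf5 (1.18 ± 0.18, adjusted p = 0.0239, and 1.29 ± 0.16, adjusted p = 0.00365, without that library). Over all genes 0.908% were called higher with all libraries. The medians of the lists were 0.98 and 1.18, against 2.27 for the 5 members in the comparison that were not chosen for their rise and -0.05 for all genes. Without the library labelled C57 uninjured replicate 4, 5 of 17 and 6 of 29 were called higher, against 3.5% of all genes. In MRL, 5.25% of all genes were called higher and 2.15% lower. There, 4 of 16 sensing genes were called higher, Zbp1, Pycard, Casp4 and Il1b. Of 25 interferon response genes, Ifngr2, Irf5, Oas1a, Oasl2 and Gbp3 were called higher and Ifit2 lower (log2 fold change -1.29 ± 0.27, adjusted p = 0.015, edgeR, and -1.15 ± 0.28, adjusted p = 0.0394, without the library labelled MRL uninjured replicate 4). Without the library labelled MRL uninjured replicate 4, 0 of 16 and 3 of 28 were called in either direction, against 6.11% of all genes.

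Of the other genes of the cluster, Aim2, the DNA receptor of the inflammasome, had 4.02 to 7.84 CPM in injured C57 and 0 to 2.01 CPM in uninjured C57, without passing the test (log2 fold change 2.56 ± 1.07, adjusted p = 0.305, edgeR). The change was 2.14 ± 0.69 on the log2 scale without the library labelled C57 uninjured replicate 4 (adjusted p = 0.11, edgeR). In injured MRL it had 10.3, 2.63, 0.485 and 1.22 CPM, so that 1 library carried most of it. The pseudogene Ifi203-ps, which shares 4.92% of its stretches with Ifi203, had 0.32 to 3.76 CPM over all libraries. Ifi206, Ifi208, Ifi213 and Ifi214 reached at most 1.38 CPM in a library.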

How the data were processed

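RNA of 16 flexor tendons was sequenced as single-end reads of 100 bases. Per the labels, the authors trimmed reads with Trimmomatic 0.36, aligned them to GRCm38.p5 with STAR 2.5.2b and counted them with featureCounts of Subread 1.5.0p3, and the deposited values are whole-number counts per gene without normalization. The handling of reads with several matches was not given in the sources used here. The labels name a TruSeq library kit and the study's methods SMARTer pre-amplification with Nextera XT, and which was used was not settled. The members and the gene lists were chosen with earlier results of these data known.

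Counts were tested in edgeR 4.0.16 (R 4.3.3) with trimmed mean of M values factors, its expression filter, robust quasi-likelihood tests and Benjamini-Hochberg adjustment over all genes tested, and a call needed an adjusted p under 0.05 and more than 1 log2 unit of change (for the interaction, the adjusted p alone). Scripts were tested on simulated data. Groups followed the labels, with each library taken as a separate animal as the study's methods state. Alternatives were DESeq2 1.42.0, other scaling factors, no filter, all 16 libraries in 1 fit, a replicate block and leaving out libraries. Log2 CPM used a prior count of 2. Gene models were GENCODE M21, in which 47139 of the 49568 symbols matched exactly 1 gene. Named genes were all 8 members, their neighbours, the 3 genes most like each member, Aim2, Ifi203-ps, and from the pathway lists the genes that passed with all libraries. Cell type markers were given by counts, with some named as examples.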

Additional observations from a re-analysis of the deposited data

Results flagged for a closer look

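Of 31 groups of 4 libraries examined for a member with a level above 0, 4 held a library that lay far from the other 3, where chance gives about 1 in 20. For Ifi202b and Ifi209 the other 3 libraries were at 0, in which case any count above 0 stands apart, so that rate does not apply to those 2 groups. Ifi202b was at 0.355 CPM in injured C57 replicate 4 and at 0 in the other injured C57 libraries. Ifi203 was at 4.77 CPM in uninjured MRL replicate 3, against at most 2.24 CPM in the rest of its group. Ifi209 was at 0.321 CPM in the library labelled MRL uninjured replicate 4 and at 0 in the others. Ifi211 was at 0.694 CPM in uninjured C57 replicate 3, against at least 2.81 CPM in the rest, and this was also the uninjured C57 library with 175 counts of Ifi202b and C57 strain genes. The causes were not tested.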

How the results depend on the processing

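Leaving out 1 library at a time gave 10 to 750 genes called on injury in C57 (155 with all libraries), 689 to 1260 in MRL (1057), 0 to 3 between uninjured strains (0) and 231 to 481 between injured strains (502). The members called were 0 to 4 on injury in C57 (2) and 1 to 3 between injured strains (3), counted among the 6 not chosen on C57 libraries, and 0 to 2 in MRL (1), counted among all 8. DESeq2 called 913 genes and 5 members in C57, 1807 and 7 in MRL, 104 genes between uninjured strains, 1477 between injured strains and 211 for the interaction. The fit of all 16 libraries called 367 genes and 4 members in C57, 2 members in MRL (of the 6 not chosen), and 227 genes and 0 members between injured strains. Without a filter, 2 of all 8 members were called in MRL, against 3.63% of all genes (967 of 26637). That setting called 1 gene between uninjured strains. Without both libraries labelled uninjured replicate 4, 497 genes were called between uninjured strains.

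Signs turned for uncalled values of Ifi202b to Ifi205 and Mndal. Between uninjured strains, Ifi202b (-2.48 on the log2 scale) was at 1.09 with the replicate block, 0.17 without both libraries labelled replicate 4 and between -2.87 and -0.24 with 1 library left out, Ifi203 (-0.27) lay between -0.67 and 0.074, Ifi204 (0.02) was at -0.0016 with the block, -0.28 without both and between -0.13 and 0.18 with 1 library left out, Ifi205 (-0.07) was at 0.30 without both and between -1.48 and 0.36, and Mndal (0.19) between -0.39 and 0.47. Between injured strains Ifi203 (-0.35) lay between -0.59 and 0.035, and its interaction (-0.07) lay between -0.41 and 0.35. Same-numbered uninjured libraries of the 2 strains had r of -0.262, 0.0157, -0.105 and -0.234. On the same measure, differently numbered ones had r from -0.229 to 0.263, so the numbers did not pair them. The replicate block called 0 genes. Ifi211 is limited most by shared sequence and Ifi209 by depth, with 0 counts in 7 of the 8 uninjured libraries. Other scaling factors changed no call of a member.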
